A study of Mus musculus with 6 samples.

Results

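The Reg family, small secreted C-type lectins first found in regenerating pancreas, was followed in medullary thymic epithelial cells (mTECs) of mice with and without Mbd1. The members are the 7 genes Reg1, Reg2, Reg3a, Reg3b, Reg3d, Reg3g and Reg4. They were found as every probe of the deposited expression matrix whose gene symbol equals one of these names, which gave 7 of 41174 probes, 1 per gene. Reg3b was found through its current symbol, since the array design names it Pap. All 7 passed the filter on dim probes (at least 3 of the 6 scanned arrays well above background), 6 of them on 6 arrays and Reg3d on 5. The family was proposed with the differences between the genotypes in these same columns known, so those differences are given as a description.

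The cells were sorted from the thymus of mice 30 days old as live cells that carry EpCAM and MHC class II and lack CD45, CD11c and Ly51. The wild type group is labelled MBD1 WT and the knockout group MBD1 KO. The sources used here do not give the strain, the sex, the deleted part of Mbd1 or the number of animals behind a replicate. The RNA was amplified, labelled with Cy3 and read on 1 Agilent mouse array per sample. The comparison uses 3 matrix columns per genotype, and the series' design text says that 4 biological replicates of each were made and 1 of each was removed after quality control.

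mTECs express genes of many other organs, and by displaying those proteins to developing T cells they shape tolerance to them. The Reg genes are such tissue genes: outside the thymus they are known from the acinar cells of the pancreas and from the lining of the gut, where Reg3b and Reg3g are secreted as antibacterial lectins under control of interleukin 22 and the transcription factor STAT3. Mbd1 encodes a protein that binds methylated CG sites in DNA. The matrix holds log2 values after a between-array step, without background subtraction, so that differences of dim genes are understated.

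Matrix columns and scanner arrays disagreed on the genotype of most samples. Ranks of 40929 probes spotted once were compared, and 5 of the 6 columns equalled a scanner array exactly, 4 of these an array titled with the other genotype and 0 the array of the same title. This left column knockout 1 and the array titled knockout 2, which match nothing. Mbd1 itself, at probe A_51_P143224, read 8.81 ± 0.20 in the wild type and 5.62 ± 0.02 in the knockout columns (SD, n = 3), the latter near the background of 5.50 to 5.67 (95th percentile per column of probes detected on no array). At probe A_52_P158923 it read 8.39 ± 0.10 and 5.43 ± 0.21. The third probe, A_52_P131423, differed less, at 6.56 ± 0.21 and 5.58 ± 0.10 (adjusted p = 0.125 in limma's fit). Per array 72.6% to 79.5% of probes were well above background, with 0 saturated spots. Of 14 mTEC markers on the array 13 passed the filter on dim probes, well above background on 3 to 6 arrays with outlier spots not counted. Aire, the regulator of tissue antigens in mTECs, was so on all 6. It read 10.77 ± 0.22 in the wild type and 11.07 ± 0.50 in the knockout columns (SD, n = 3). Directions below follow the column names. For the Reg genes and Il22 the differences under the array titles are given after the values. The fit under the titles ran over all kept probes, but its differences for other genes are not given.

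The upstream sequences of the genes are shown first because Mbd1 is known to bind methylated CG sites. From RefSeq (GRCm38.p6), all 7 genes matched by Entrez identifier. In that assembly 6 genes lie side by side on chromosome 6 in the order Reg3b, Reg3d, Reg3a, Reg2, Reg1 and Reg3g, with 0 other protein-coding genes between them, and Reg4 lies on chromosome 3. The 250 bases before the start of the 4 members with the most negative knockout minus wild type differences, and of Reg2, the member of highest difference, are printed 5′ to 3′ on the gene's own strand. Capitals mark CG, CACCTG (an E-box, on either strand), TATAAA (on either strand) and TTCNNNGAA (the letters STAT proteins are known to bind). The windows are chr6:78370635-78370884 (Reg3b, plus strand), chr6:78425733-78425982 (Reg1, plus), chr6:78380459-78380708 (Reg3a, plus), chr6:78468875-78469124 (Reg3g, minus) and chr6:78404905-78405154 (Reg2, plus).
Reg3b: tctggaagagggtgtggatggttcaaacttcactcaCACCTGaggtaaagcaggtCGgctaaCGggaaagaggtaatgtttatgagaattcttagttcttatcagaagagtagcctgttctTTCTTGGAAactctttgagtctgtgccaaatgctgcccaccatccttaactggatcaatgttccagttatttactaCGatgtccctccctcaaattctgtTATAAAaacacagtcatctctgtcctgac
Reg1: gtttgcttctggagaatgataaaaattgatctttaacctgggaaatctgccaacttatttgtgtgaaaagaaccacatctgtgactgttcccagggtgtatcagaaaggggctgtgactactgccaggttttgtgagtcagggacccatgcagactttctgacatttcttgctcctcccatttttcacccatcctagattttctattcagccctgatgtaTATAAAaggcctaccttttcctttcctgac
Reg3a: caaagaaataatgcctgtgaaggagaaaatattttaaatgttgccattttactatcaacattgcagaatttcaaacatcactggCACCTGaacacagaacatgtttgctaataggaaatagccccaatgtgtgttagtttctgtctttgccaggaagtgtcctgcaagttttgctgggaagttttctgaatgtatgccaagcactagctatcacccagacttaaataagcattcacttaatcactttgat
Reg3g: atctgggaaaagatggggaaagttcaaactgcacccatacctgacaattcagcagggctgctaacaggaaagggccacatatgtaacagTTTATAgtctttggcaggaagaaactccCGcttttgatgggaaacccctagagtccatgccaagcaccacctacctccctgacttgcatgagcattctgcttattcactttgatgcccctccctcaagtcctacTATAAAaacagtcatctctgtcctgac
Reg2: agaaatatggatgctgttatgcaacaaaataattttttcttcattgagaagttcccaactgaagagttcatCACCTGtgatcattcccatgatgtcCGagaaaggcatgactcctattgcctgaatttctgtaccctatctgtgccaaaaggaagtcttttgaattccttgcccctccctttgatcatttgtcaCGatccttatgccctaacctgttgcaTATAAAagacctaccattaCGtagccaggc

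The upstream bases of the family were poor in CG. Reg1 and Reg3a held 0 CG, Reg3d and Reg3g 1 each, Reg4 2, and Reg2 and Reg3b 3 each. Over 32851 promoters of the same length in the table the median was 6 CG, and 37.8% held 3 or fewer. Their G and C content lay between 37.2% and 47.2%, against a median of 52.4% over all promoters. CACCTG was found upstream of 5 of the 7 genes (Reg2, Reg3a, Reg3b, Reg3d and Reg4), against 17.2% of all promoters. TATAAA was found upstream of 4 (Reg1, Reg2, Reg3b and Reg3g), against 12.4%. In these 4 genes a match on the gene's own strand began 27 to 30 bases before the start. TTCNNNGAA was found upstream of Reg3b and Reg3d, against 7.02% of all promoters. The searched motifs do not overlap each other in these windows. Reg3b and Reg3g had the most similar upstream bases of the 21 pairs, at 68.9% identity in a global alignment, while the other 20 pairs lay between 47.8% and 58.5%. These matches are letters in a window and describe no measured binding, and methylation was not measured here.

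**Figure D1:**
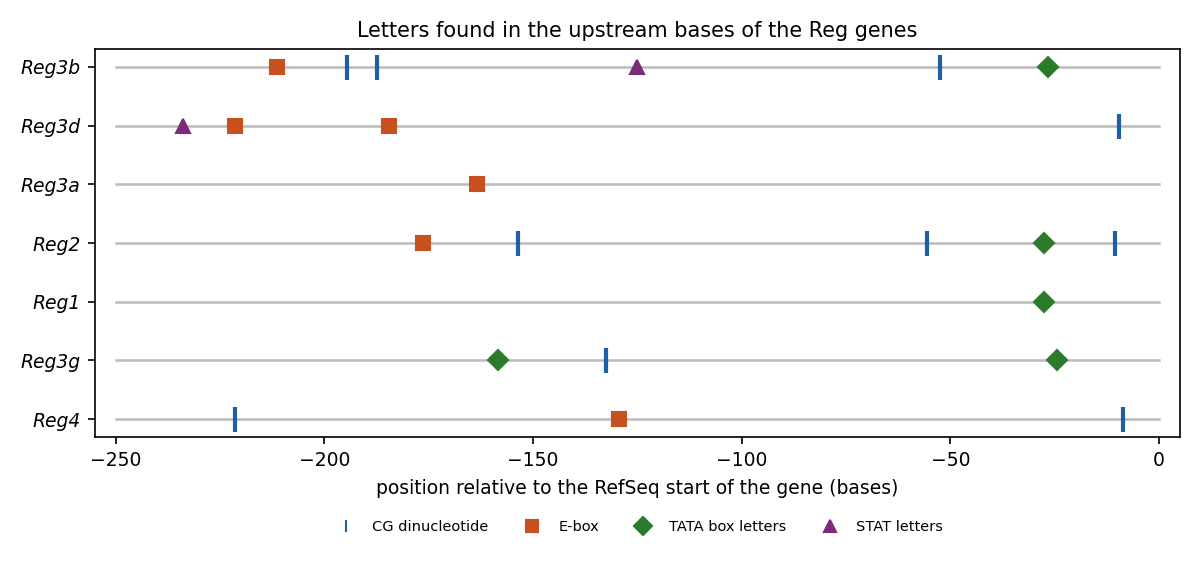
Positions of CG dinucleotides (bars), CACCTG (squares), TATAAA (diamonds) and TTCNNNGAA (triangles) in the 250 bases before the RefSeq start of each Reg gene, on the gene's own strand, with chromosome 6 genes in genome order and Reg4 last. Reg1 and Reg3a hold 0 CG and no gene holds more than 3.

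Reg3b, Reg1, Reg3a and Reg3g, all on chromosome 6, read lower in the knockout columns, with differences from -1.15 to -0.42 on the log2 scale. The differences of Reg2, Reg3d and Reg4 lay between -0.17 and 0.19. In all, 5 of 7 were negative, against 51.8% of all kept probes. Of the 7, 0 passed an adjusted p of 0.05 in limma's fit over all 32246 kept probes (smallest adjusted p 0.185), where 0.177% of probes passed. At an unadjusted p of 0.05, 4 of 7 passed, against 3.96% of all probes. In 3 members every knockout column lay under every wild type column, and 4.07% of all probes had that order. The median over the 7 was -0.42, beside -0.01 over all kept probes. Since these columns led to the choice of the family, nothing is read from these counts. In sorted cells of mixed kinds, fewer cells that express a gene and less RNA per cell cannot be told apart.

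Reg1 encodes lithostathine, a protein of pancreatic juice. In columns 1 to 3 of the wild type it read 11.66, 11.93 and 11.72, and in those of the knockout 10.85, 11.06 and 10.70 (all log2). The groups were apart by 0.61, the widest gap of the family, with small spread in both (11.77 ± 0.14 and 10.87 ± 0.18, SD, n = 3). The difference was -0.90 (SE 0.19), and the wild type mean was 1.87-fold the knockout mean on the linear scale. It lay between -0.99 and -0.82 when any 1 column was left out.

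Reg3b, the pancreatitis-associated protein and an antibacterial lectin of the gut, had the largest difference. It read 10.95, 11.78 and 10.67 in the wild type columns and 9.92, 9.79 and 10.24 in the knockout columns. The wild type values spread over more than 1 log2 unit, with column 2 highest, and the lowest of them lay 0.43 above the highest knockout value. The difference was -1.15 (SE 0.28), a 2.22-fold higher wild type mean. Without column wild type 2 it was -0.82, the smallest size of any left-out column.

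Reg3g encodes the lectin that binds peptidoglycan and kills Gram-positive bacteria in the intestine. Its probe read 16.04, 16.25 and 16.40 in the wild type columns and 15.91, 15.80 and 15.72 in the knockout columns. All knockout values were lower, but the gap to the lowest wild type value was 0.13, less than the SD of the wild type columns (0.18). The difference was -0.42 (SE 0.19), a 1.34-fold higher wild type mean. The probe's signal was strong on every array, with a processed intensity of 46788 to 88076 and no saturated spot.

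Reg3a, a further lectin of the third subfamily expressed in pancreas and gut, read 9.37, 9.999 and 10.15 in the wild type columns. In the knockout columns it read 9.43, 9.16 and 8.85. The groups overlapped, since wild type 1 lay under knockout 1 by 0.06. The difference was -0.69 (SE 0.25), and it was -0.93 without column wild type 1. Reg3a and Reg3g ordered the columns alike within each genotype: wild type 3 was highest and wild type 1 lowest of their group, and knockout 1 highest and knockout 3 lowest.

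Reg2, a close relative of Reg1 made in pancreatic acinar cells, had a difference of the other sign. It read 7.90, 7.60 and 7.79 in the wild type and 7.93, 7.87 and 8.04 in the knockout columns. The groups overlapped, and the difference was 0.19 (SE 0.19, 95% interval -0.22 to 0.60). The order of the columns was nearly the reverse of that of Reg1: Reg2 was highest in knockout 3 and lowest in wild type 2, and Reg1 lowest in knockout 3 and highest in wild type 2.

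Reg3d, related to the islet neogenesis protein of hamster, was dim. It read 6.32, 6.36 and 6.52 in the wild type columns and 6.22, 6.08 and 7.05 in the knockout columns. Knockout 3 stood above the other columns and knockout 2 was lowest, so the groups overlapped on both sides. The difference was 0.05 (SE 0.26) with all columns and -0.25 without column knockout 3.

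Reg4, the member on chromosome 3, is known from intestinal secretory cells. It read 9.78, 9.77 and 10.29 in the wild type and 9.96, 9.69 and 9.69 in the knockout columns. Wild type 3 was the highest of the 6 and the other values overlapped. The difference was -0.17 (SE 0.21, 95% interval -0.64 to 0.30), and without column wild type 3 it was 0.00.

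**Figure D2:**
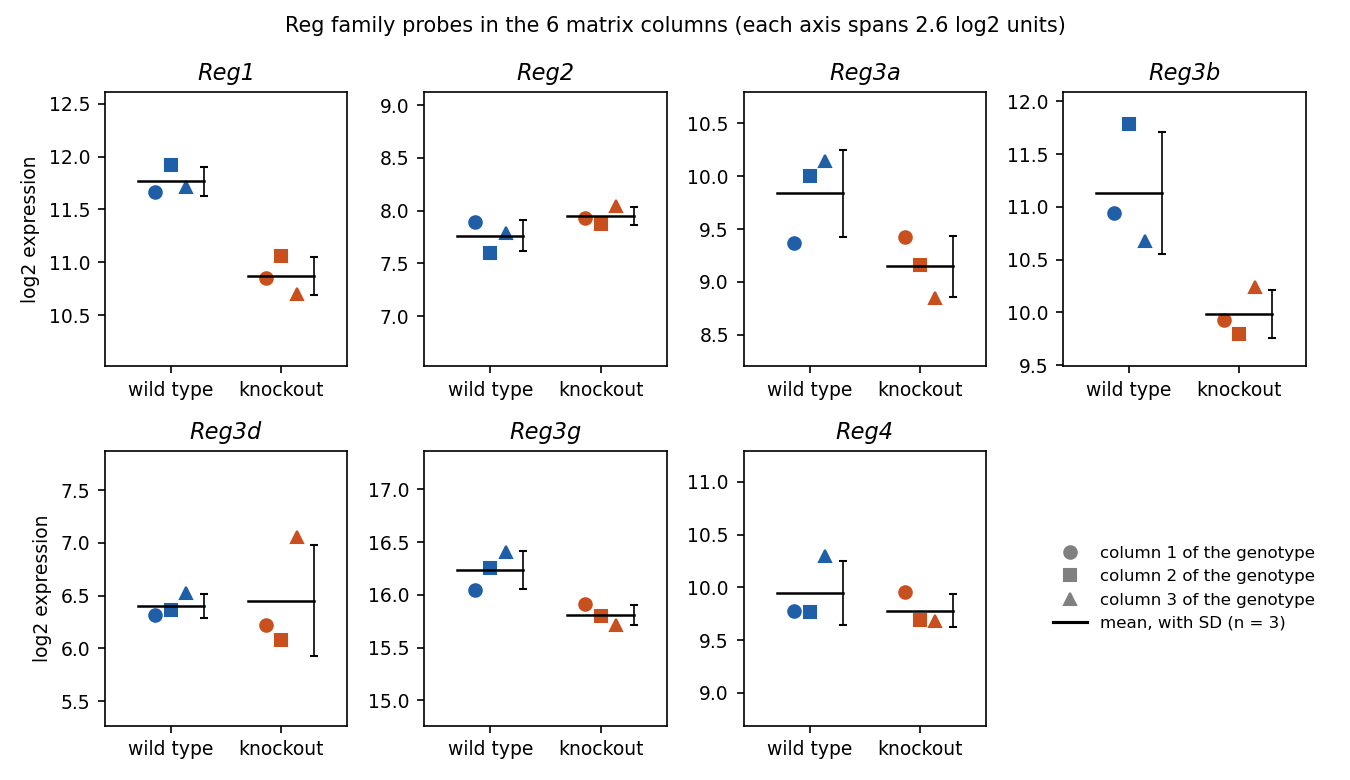
The log2 expression of each Reg probe in the 6 matrix columns, by genotype, with the symbol giving the column number, the horizontal line the mean and the bar the SD (n = 3); every axis spans the same range. Reg1, Reg3b and Reg3g do not overlap between the genotypes, while Reg2, Reg3a, Reg3d and Reg4 do.

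The arrays lay on a pair of slides, and the slide of a column is known for the 5 that equal an array. Columns wild type 1, knockout 2 and knockout 3 lay on slide 1 and wild type 2 and 3 on slide 2, so slide 1 alone holds both genotypes. Within it, against a single wild type column, Reg3b differed by -0.93, Reg1 by -0.78, Reg3a by -0.36 and Reg3g by -0.28. All 4 kept their sign and were smaller in size than over all columns. In Reg1, Reg3b and Reg3g, whose groups do not overlap, the sign could not have changed. The wild type columns of slide 2 averaged higher than wild type 1 in these 4 genes, by the most in Reg3a (10.07 against 9.37). In limma's fit with the slide as a block, which also leaves out knockout 1 because its slide is not known, 0 of the 7 passed (smallest adjusted p 0.734). The difference of Reg3a over all columns was 1.90 times that within slide 1.

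**Figure D3:**
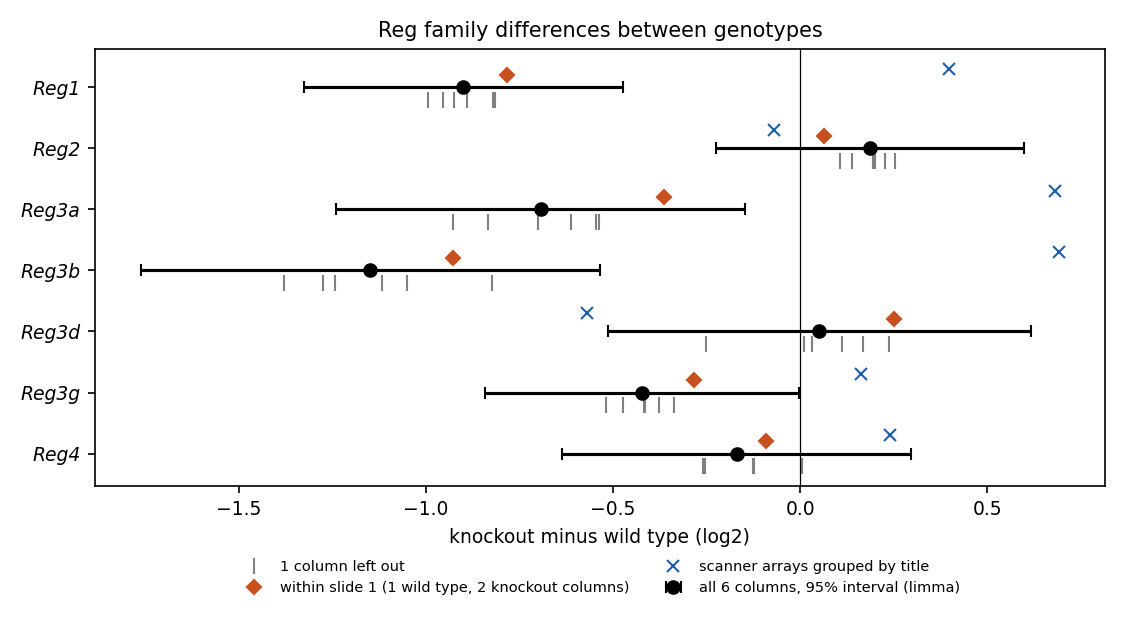
Knockout minus wild type differences (log2) of the Reg probes over all 6 columns with limma's 95% interval (black), with each column left out in turn (grey bars), within slide 1 (diamonds), and for the scanner arrays grouped by their titles (crosses). The left-out values of Reg1, Reg3a, Reg3b and Reg3g stay below 0, and the crosses of these 4 genes lie above 0. For Reg1, Reg3b and Reg3g the former follows from groups that do not overlap.

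Grouped by their titles, the scanner arrays gave the opposite signs. On the arrays titled wild type 1 to 3, Reg3b had a processed intensity of 1026, 1299 and 1221, and on those titled knockout 1 to 3 it had 3341, 1441 and 2186. Reg1 had 2163, 1923 and 1389 on the arrays titled wild type and 3167, 1669 and 3847 on those titled knockout. As log2 intensity minus the array's 75th percentile, the titled groups differed by 0.69 (SE 0.45) in Reg3b, 0.40 (SE 0.38) in Reg1, 0.68 (SE 0.36) in Reg3a and 0.16 (SE 0.29) in Reg3g, knockout minus wild type. Reg2 differed by -0.07 (SE 0.27), Reg3d by -0.57 (SE 0.61) and Reg4 by 0.24 (SE 0.25). Each of these differences was less than 2 times its SE. The same arrays enter both groupings, 1 array and 1 column apart, so the direction rests on which names are right. The arrays titled wild type 1 to 3 all lay on slide 1, and those titled knockout 1 and 3 on slide 2. In the titled groups, genotype and slide thus cannot be told apart for the arrays of known slide. At Mbd1 probe A_51_P143224 the arrays titled wild type 1 and 3 had a processed intensity of 20.9 and 15.6, and those titled knockout 1 and 3 had 356 and 682. The array titled wild type 2, which equals column wild type 1, had 305. On the 4 arrays whose title and column differ in genotype, the level of the deleted gene thus went with the column name and against the title.

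The array titled knockout 2 did not enter the matrix and so was no part of the values that led to this family. On it, 2 of the 3 Mbd1 probes were dim (17.2 and 21.3) and the third, A_52_P131423, was not (93.3). On the scale of log2 intensity minus the array's 75th percentile, Reg1 read 1.85 on this array. The 3 arrays that equal a wild type column read 2.62 to 2.99, and the 2 that equal a knockout column 1.71 and 2.05. Reg3g read 6.73, against 7.23 to 7.38 and 6.71 to 6.95. Reg3a read -0.03, against 0.23 to 1.08 and -0.33 to 0.07, and Reg3b read 1.64, against 1.92 to 3.06 and 0.97 to 1.53. Reg2 lay above all other arrays, at -0.88, and Reg4, at 0.79, between the arrays of the wild type columns. Reg3d was not well above background on this array. In 5 of the 7 members, Reg3d included, the array lay under all 3 arrays of the wild type columns, as did 24.4% of all kept probes measured on these arrays. Those 3 arrays do hold values that led to this family. The share over all probes, which were not chosen in that way, is thus no matched measure, and nothing is read from the count. A single array allows no test. Its rank correlation with column knockout 1, the column that equals no array, was 0.962 across probes. Over all pairs of a column and an array that were not equal it ran from 0.952 to 0.986. Column knockout 1 reached its highest value, 0.985, with the array titled knockout 3, which equals column wild type 3.

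**Figure D4:**
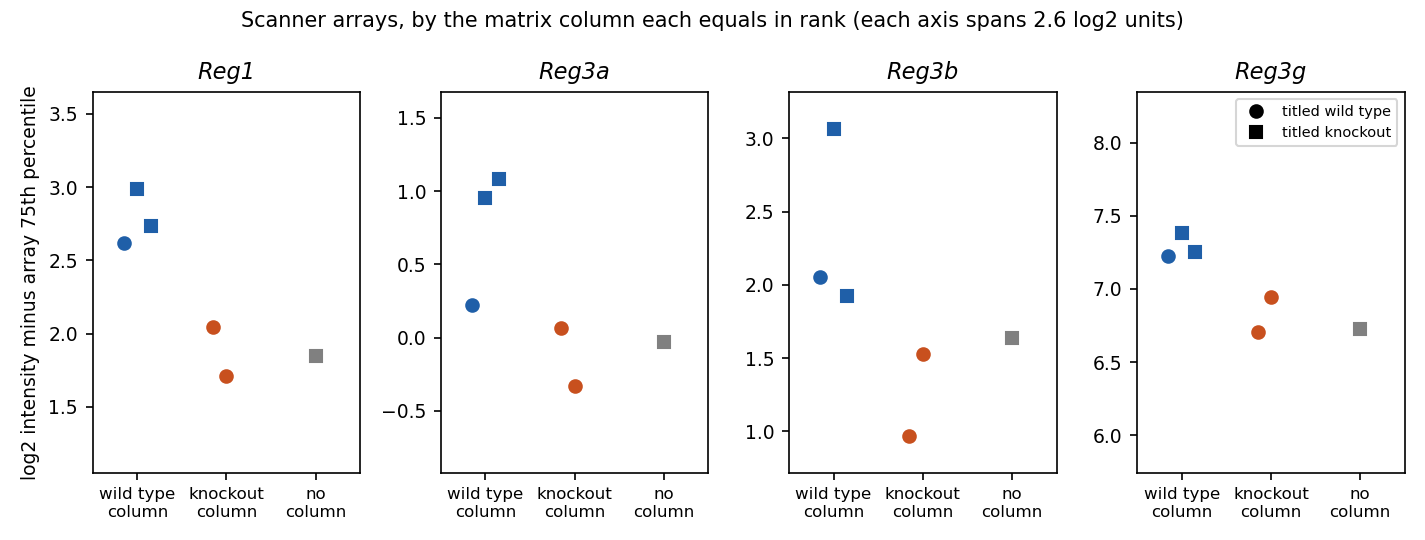
Log2 processed intensity minus the array's 75th percentile for 4 Reg genes on the 6 scanner arrays, placed by the matrix column each array equals in rank, with circles for arrays titled wild type and squares for arrays titled knockout; every axis spans the same range. The array that equals no column (grey) lies under the arrays of the wild type columns in all 4 genes, which are those of most negative difference between the matrix columns.

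The chromosome 6 neighbours of the cluster had differences of both signs. Of the 10 protein-coding genes on each side in RefSeq order, 16 were kept, and 0 of them passed in limma's fit over all probes (0 at an unadjusted p of 0.05). Their median difference was 0.05, with 9 positive and 7 negative. They ranged from -0.42 in Lrrtm1, the nearest gene on the Reg3b side, to 0.47 in Mrpl19. Neither the neighbours nor the members were compared with each other by a test.

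The genes known to act on the Reg genes were set beside them as a list of 25 genes of the interleukin 22 and STAT3 axis, of which 23 were kept. One passed, Il22 itself, the cytokine that induces Reg3b and Reg3g in gut epithelium. It read 8.66, 8.13 and 8.28 in the wild type columns and 10.25, 10.68 and 10.31 in the knockout columns, and rose by 2.06 (SE 0.22, limma adjusted p = 0.0024). With the slide as a block and knockout 1 left out, since its slide is not known, it read 1.84 and did not pass (limma adjusted p = 0.247); with knockout 1 left out and no block it read 2.14 and passed (limma adjusted p = 0.0109). Under the array titles it read -0.71 (limma adjusted p = 0.997). No other gene of the axis passed. Of the 23 genes, Il22 included, 10 were positive and 13 negative, with a median of -0.02. Il6st, the shared receptor chain of the interleukin 6 family, read -0.49 (SE 0.21) and Socs3, a feedback inhibitor that STAT3 induces, 0.38 (SE 0.22). Il22ra1, the receptor chain specific to interleukin 22, read 6.22 ± 0.08 in the wild type and 6.03 ± 0.10 in the knockout columns (SD, n = 3), and Stat3 differed by -0.04 (SE 0.26). The cytokine was higher in the columns in which Reg3b and Reg3g read lower.

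Proposed receptors and partners of Reg proteins showed no passing member. Extl3, a glycosyltransferase described as a Reg receptor, read -0.05 (SE 0.19), and the 5 genes had a median of -0.05, with Lrp1 at -0.26 and Cd44 at -0.22. The 19 transcription factors of pancreas and gut had a median of 0.01 and 0 passed. Ptf1a, the acinar factor that binds E-boxes, read -0.08 (SE 0.20). The factors of smallest p were Spib at 0.41, Hnf4g at -0.37 and Foxa1 at -0.32.

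Antigens of the organs that express Reg genes were described next. Of 29 kept enterocyte antigens 20 were negative, with a median of -0.24 and 0 passing. In 5 of them every knockout column lay under every wild type column, against 4.07% of all probes, and in 1 above, against a further 4.07%. Apoc3, an apolipoprotein of triglyceride-rich particles, read -1.01 (SE 0.20), Sis, sucrase-isomaltase of the brush border, -1.04 (SE 0.22), and Guca2b, uroguanylin, -0.84 (SE 0.23). The 18 kept secreted gut antimicrobials had a median of -0.24, 12 of them negative and 0 passing, with Saa3 at -0.51, Lcn2 at -0.28 and Retnlb at 0.35. The 24 kept pancreatic acinar antigens had a median of 0.01, with 12 negative, 12 positive and 0 passing. Sycn, syncollin of the zymogen granule, read 0.92 (SE 0.29), Pla2g1b, pancreatic phospholipase, 0.77 (SE 0.25), and Spink3, the acinar trypsin inhibitor, -0.58 (SE 0.22). In these lists, at an unadjusted p of 0.05, 6 enterocyte, 1 antimicrobial and 4 acinar genes passed in limma's fit, against 3.96% of all probes. The lists were not tested against each other.

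**Figure D5:**
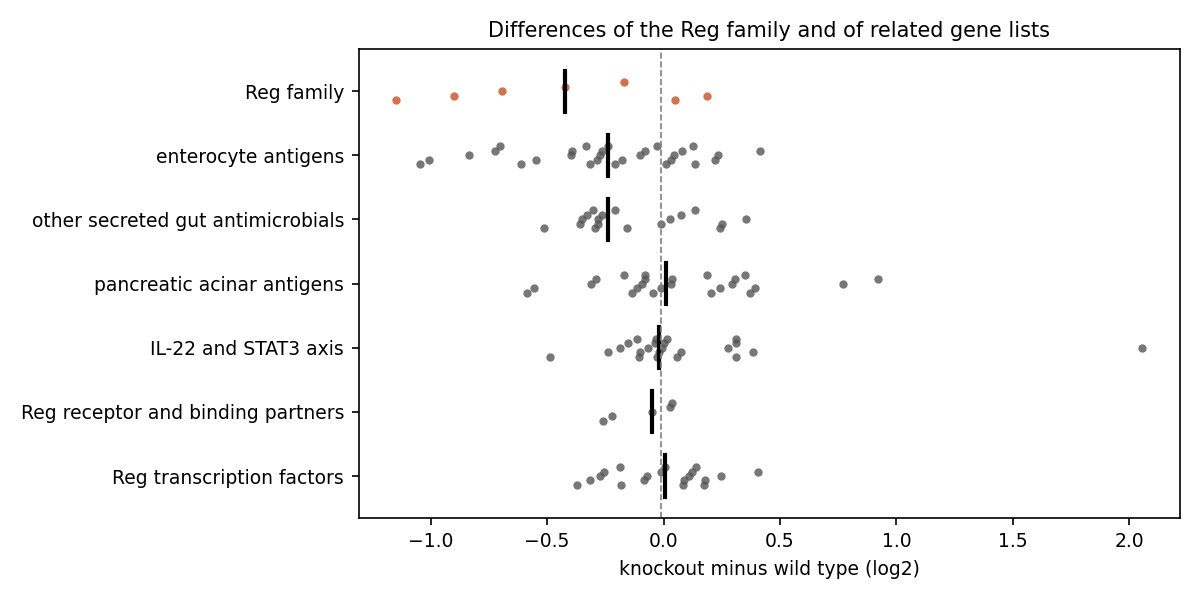
Knockout minus wild type differences (log2) of the 7 Reg probes and of 6 related lists, 1 point per gene, with the list's median as a black bar and the median over all kept probes as a dashed line. The Reg median is -0.42, the enterocyte and antimicrobial medians are both -0.24, and Il22 stands apart at 2.06.

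Markers of other cells were set beside the Reg values. Of 13 kept thymocyte markers 12 were positive, with a median of 0.43, and their mean log2 level was 7.69 to 8.10 in the wild type and 8.30 to 8.54 in the knockout columns. Rag2 and the dendritic cell gene Siglech did not pass the filter on dim probes, nor did the mTEC gene Ctss, whose spots were marked as outliers. The mTEC markers had a median of -0.05 over 13 genes and a mean level of 12.41 to 12.55 in both groups. Dendritic cell and macrophage markers had a median of 0.17 over 13 genes (9.16 to 9.26 against 9.29 to 9.42) and B cell markers 0.04 over 9. Plasma cell markers had a median of 0.04 over 8 genes, but Jchain, the joining chain of secreted antibodies, read 6.50, 6.29 and 6.99 in the wild type and 7.42, 9.60 and 7.99 in the knockout columns, a difference of 1.74 (SE 0.45, limma adjusted p = 0.377), with knockout 2 far the highest. Mzb1, a chaperone of antibody-secreting cells, differed by 0.56 (SE 0.20). Of the 8 plasma cell genes 5 were positive and 3 negative. The lowest knockout value exceeded the highest wild type value in these 2 plasma cell genes and in 6 of the 13 thymocyte markers. The same order held in 5 of 13 dendritic cell and macrophage, 2 of 8 cortical and 1 of 10 fibroblast and endothelium markers. Over all probes 4.07% had that order. The reverse order held in 3 dendritic cell and macrophage markers, 1 cortical and 1 mTEC marker, and in 4.07% of all probes. Cortical epithelial markers had a median of 0.27 over 8 genes (9.98 to 10.23 against 10.27 to 10.35), and markers of fibroblasts and endothelium 0.09 over 10. None of these markers passed in the fit over all probes. Their part in the Reg values was not tested.

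The genes most like each member over the 6 columns were named by Pearson correlation among 16820 genes outside the family. Over so few columns many genes reach a high value: between 55 (Reg4) and 208 (Reg3d) genes had a correlation over 0.9. For Reg1 they were Ces1f (0.993), Ncoa7 (0.984) and Antxr2 (0.984), each with the same order of columns as Reg1. Those for Reg3b included H6pd (0.980) and Tax1bp1 (0.979). For Reg3a they were Slc9a8 (0.999), Arxes1 (0.995) and Pak1 (0.985), and for Reg3g Cdc25b (0.992), Tal2 (0.990) and Arxes1 (0.984), so that Arxes1 was named for both. Subtracting each genotype's mean left Arxes1 at 0.987 with Reg3a and 0.996 with Reg3g. For Reg2 they were Wee1, Myom1 and Crnkl1 (0.977 to 0.987), for Reg3d Asphd2, Slco1b2 and Ms4a14 (0.986 to 0.998), and for Reg4 H2-Oa, Tmem41a and Sgms2 (0.988 to 0.994).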

How the data were processed

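The authors deposited 1 scanner file per array holding linear intensity values. Agilent Feature Extraction made them; the file headers give version 10.7.3.1, while the submitters' processing notes give 10.6. The authors' deposited matrix gives each probe log2 values in 6 columns that carry a genotype and a number. Which tool normalized it is not given in the sources used here. Column medians were 7.13 to 7.14, and all columns had 1 maximum. The deposited matrix also holds the authors' log2 ratio, linear fold, p-values and a log-odds score; the score was not used. The authors' deposited table gives Reg1 -0.90 with an FDR of 0.21, and no Reg gene an FDR under 0.05.

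Scanner files served for the detection flags (outlier spots left out, spots of a probe averaged) and for the titled groups; there 119 probes lacked a group through outlier spots. Kept probes (32246) were detected above background on 3 or more of the 6 arrays, whatever their titles. The kept rows of the matrix were fitted with lmFit and eBayes (limma 3.58.1, R 4.3.3), with genotype as the only term and Benjamini-Hochberg adjustment over all kept probes. The fit was tested on simulated data. Probes were named through Entrez identifiers (32833) or the file's symbol (2780), and 5561 had no symbol. For lists and likeness each gene was its kept probe of highest mean. Promoters are from RefSeq (GRCm38.p6).

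Named genes were all members, Mbd1, up to 3 genes of smallest p per list of related genes and any that passed, and the 3 genes most like each member, of which 1 is not reported here; other genes were chosen after their values were seen (Stat3, Il22ra1, Extl3, Ptf1a, Aire, Jchain, Mzb1 and the nearest and most different neighbours). The members and lists were chosen with earlier results of these data known. Precision was limited by the 3 columns per genotype, for which an exact permutation test cannot go below 0.1. Probe sequences were not analysed here, so cross-hybridisation between the similar Reg transcripts was not checked.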

Additional observations from a re-analysis of the deposited data

How the results depend on the processing

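The count of Reg probes that passed was 0 under every alternative run, with a smallest adjusted p of 0.177 to 0.997 (limma). The count over all probes was 57; it was 26 with no filter on dim probes, 20 with 1 probe a gene, 95 with the replicate number as a block (replicate block), 0 with the slide as a block and knockout 1 left out for want of a known slide (79 with knockout 1 left out and no block), and 0 for the scanner files under their titles with either background correction. When a column was left out it ranged from 27 (without wild type 2) to 79 and was 34 without wild type 3. The median Reg difference of -0.42 ranged from -0.52 to -0.34 over the left-out columns. It was -0.28 with the slide as a block and knockout 1 left out. Over the 6 Reg probes well above background on all 6 arrays it was -0.56. For the titled scanner files it was 0.24, and 0.34 for these with normexp. Reg1, Reg3a, Reg3b and Reg3g kept a negative sign under every setting that used the matrix columns and turned positive under both that used the titles. Under the titles, genotype and slide go together for every array of known slide. In Reg1, Reg3b and Reg3g the groups do not overlap, so leaving out columns could not change the sign. Settings that change only the filter or the variance estimate leave each difference as it is. The kept sign is thus no separate support. Il22 read -0.71 and -0.51 under the titles. The causes were not tested, apart from the regrouping itself. Deviations of same-numbered columns from the mean of their genotype correlated between -0.33 and -0.18 across probes. These values describe likeness only and cannot show whether the samples were handled in pairs. The normexp alternative used the median in place of the mean signal of a spot. Dim probes limit Reg3d.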
